A study of Mus musculus with 9 samples.

Results

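Chemokines and their receptors were read on arrays of 3 mouse cell types: very small embryonic-like cells (VSEL), haematopoietic stem cells, called HSC here, and the embryonic line ESC-D3 (ESC). The members are the genes whose current symbol begins with Ccl, Ccr, Cxcl, Cxcr, Xcl, Xcr, Cx3cl or Cx3cr and a digit. The rule found 50 genes, 33 ligands and 17 receptors, among the 18193 genes measured, on 78 probe sets. Where a gene had several probe sets, as 18 members did, the one with the highest average over the 9 arrays was used. VSEL were sorted as Sca-1-positive cells without lineage markers or CD45, from marrow of C57BL/6 mice at 4 weeks of age. HSC came from the same kind of mice, with the same markers except that they carried CD45. ESC-D3 is a single line of strain 129S2/SvPas, taken from the embryo before implantation and kept with LIF at 10 ng/ml on dishes coated with 0.1% gelatin. Every library held 20 sorted cells, so a single cell of another kind makes up a visible share of it. Separate mice or cultures are not named for the libraries of a group, so the spread behind each p-value may be only technical.

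Chemokines are small secreted proteins that bind G protein-coupled receptors on other cells and make them move up a gradient. Their names follow the spacing of conserved cysteines (CC, CXC, XC and CX3C), and a receptor often binds several ligands of its class. In bone marrow, stromal cells secrete Cxcl12, and its receptor Cxcr4 holds haematopoietic stem and progenitor cells, B cell precursors and neutrophils in place. Other receptors, such as Ccr7 and Cxcr3, direct lymphocytes to lymph nodes or to inflamed tissue.

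All levels below are log2 RMA values, where a step of 1 is a doubling. VSEL arrays 2 and 3 differed by at most 0.573 for any member and by more than 4-fold for 1 probe set, against 1417 to 3891 probe sets in the other pairs of a group. They were therefore averaged and counted as 1 library, VSEL 2+3, which leaves 2 VSEL libraries beside 3 of HSC and 3 of ESC in every value below. A gene is called above background where it exceeds a ceiling, the 95th percentile of 39 olfactory receptor genes on that library. This ceiling was 6.445 and 6.298 in the VSEL libraries, against 5.57 to 5.846 in those of HSC and 5.621 to 5.685 in those of ESC. The lower quartile of all genes was also higher in VSEL, at 4.722 and 4.779, against 4.49 to 4.53 in HSC libraries and 4.542 to 4.552 in ESC libraries. The upper quartile was lower in VSEL, at 7.635 and 7.674, against 8.543 to 8.632 in HSC libraries and 8.502 to 8.567 in ESC libraries, so VSEL values spanned a narrower range at both ends. Of the 50 members, 18 were above background in no library (29.5% of all genes were) and 7 in every library. The labelled cell types were checked against marker genes. In HSC, Kit, Slamf1 and Hoxa9 were above background in every library, Procr in 1 of 3 and Meis1 in none. Of these, only Slamf1 was above background in HSC alone. Kit and Hoxa9 were above background in every VSEL and ESC library too. Kit averaged 7.01 in VSEL, 8.34 in HSC and 10.04 in ESC, and Hoxa9 averaged 7.70, 6.79 and 7.05. All 9 T and NK cell markers were above background in every HSC library. So were all 10 granulocyte and monocyte markers, all 4 measured erythroid markers and all 5 dendritic cell markers. Of 7 B lineage markers, 4 to 5 were above background in the HSC libraries. All 5 pluripotency markers were above background in every ESC and every VSEL library. All 5 were lower in VSEL than in ESC, with differences of -3.01 (Pou5f1) to -2.05 (Dppa5a). Blood lineage markers were above background in VSEL as well. In each VSEL library these included 5 of 7 B lineage and all 4 measured erythroid markers. Of 10 granulocyte and monocyte markers they included 9 in VSEL 1 and 10 in VSEL 2+3, and of 9 T and NK cell markers 1 and 2.

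**Figure D1:**
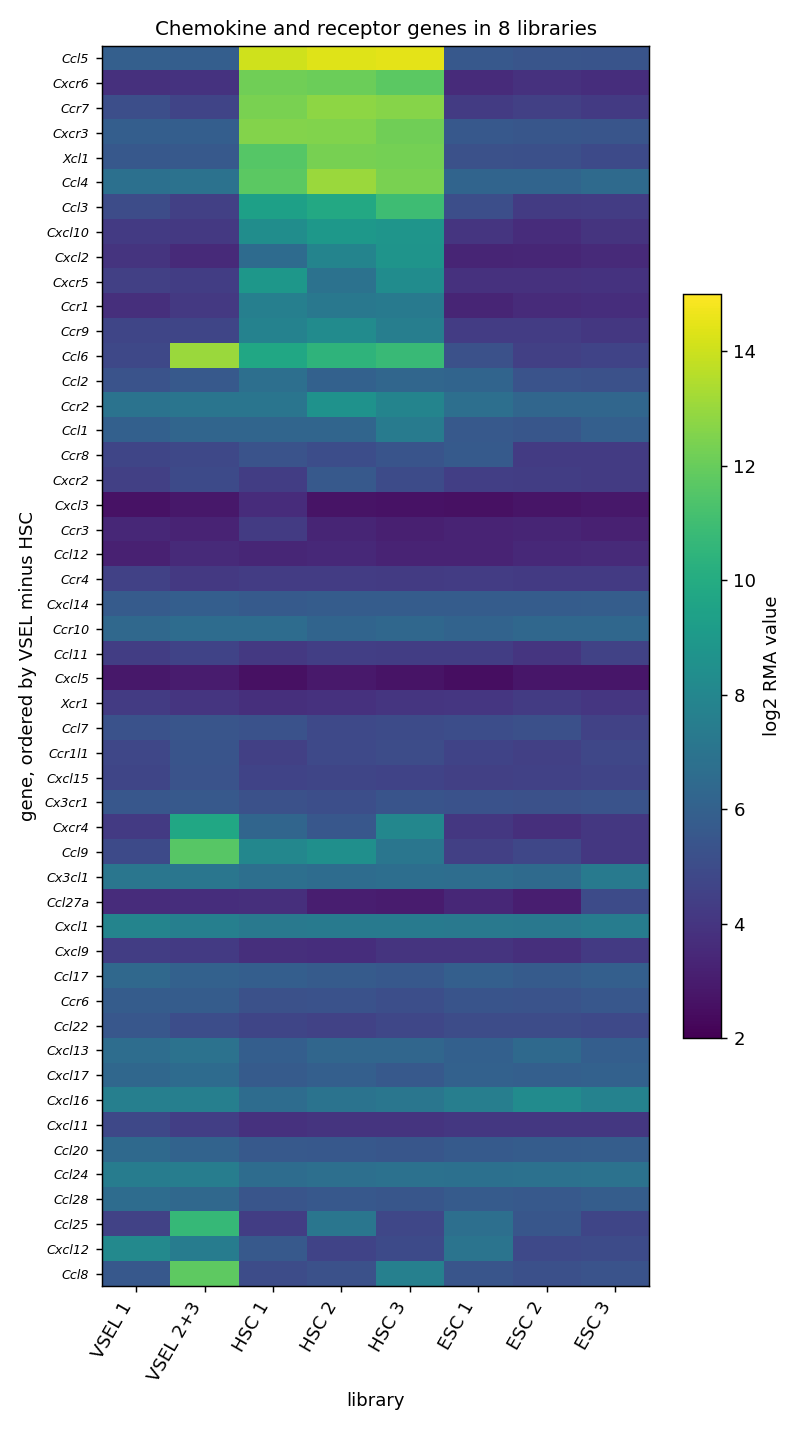
Log2 RMA value (colour) of the 50 members (rows, ordered by the VSEL minus HSC difference) in 8 libraries (columns: 2 VSEL, 3 HSC, 3 ESC). The 12 members at the top are high in all 3 HSC libraries, and Ccl6, Ccl9, Ccl8, Ccl25 and Cxcr4 are high in VSEL 2+3 but not in VSEL 1.

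Of the homing pair, Cxcl12 was called between VSEL and HSC and Cxcr4 was not. Cxcr4, the receptor that retains blood cells in marrow, lay at 4.19 in VSEL 1 and 9.74 in VSEL 2+3, at 6.24, 5.51 and 8.04 in the HSC libraries and at 4.10, 3.73 and 4.13 in the ESC libraries. VSEL 1 lay close to the ESC libraries and VSEL 2+3 above every HSC library, so VSEL and HSC overlapped. Cxcr4 was not called in any contrast: VSEL minus HSC was 0.37 (95% interval -3.44 to 4.17; limma with Benjamini-Hochberg, adjusted p = 0.884), VSEL minus ESC 2.98 (-0.83 to 6.78; adjusted p = 0.227) and HSC minus ESC 2.61 (-0.79 to 6.01; adjusted p = 0.306). Without VSEL 1, VSEL minus HSC was 3.14 (adjusted p = 0.0782), and without VSEL 2+3 it was -2.41 (adjusted p = 0.135). Without VSEL 1, VSEL minus ESC was 5.75 with an adjusted p of 0.0162, and without VSEL 2+3 it was 0.20 with an adjusted p of 0.909. A lone VSEL library is assumed there to vary like the other groups. HSC minus ESC was called in a limma fit on these 2 cell types alone (2.61, adjusted p = 0.0452). Leaving out only VSEL 1 or only VSEL 2+3 repeats that result, because a lone VSEL library adds nothing to the estimate of the spread. Intervals this wide leave a difference of several log2 units undetectable here.

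Cxcl12, the ligand of Cxcr4, lay at 8.10 and 7.44 in VSEL, at 5.62, 4.64 and 4.91 in HSC and at 6.98, 4.89 and 4.97 in ESC. Both VSEL libraries were above every HSC and ESC library, and both were above background, as were HSC 1 and ESC 1. VSEL minus HSC was 2.71 (SE 0.69; limma, adjusted p = 0.044), while VSEL minus ESC was 2.16 (SE 0.69) and was not called (adjusted p = 0.0802). The call in VSEL against HSC ended under 9 of 17 alternatives, among them leaving out VSEL 1 (2.39, adjusted p = 0.132) or VSEL 2+3 (3.04, adjusted p = 0.0768). It also ended without HSC 1, HSC 2 or HSC 3 (adjusted p = 0.0746 to 0.101), and without ESC 2 or ESC 3 (0.058 and 0.061). VSEL minus ESC was called without ESC 1 (2.84, adjusted p = 0.0158), after another quantile normalization (2.67, adjusted p = 0.0345) and with the 9 arrays separate (2.05, adjusted p = 0.0382; 0.0162 with a replicate block). In a fit of all probe sets, none of the 3 of this gene was called, and the one used gave an adjusted p of 0.0505. Of the other 2, one lay at 9.13 in VSEL 1 and 5.35 in VSEL 2+3, at 4.43 to 4.53 in HSC and at 4.54 to 6.41 in ESC. The other lay at 6.14 and 6.07 in VSEL, with HSC libraries at 5.36 to 5.72 and ESC libraries at 5.70 to 6.01, a VSEL minus HSC difference of 0.58 (adjusted p = 0.0644). Ackr3, the second receptor of Cxcl12, was below background in every library, with means of 3.21 ± 0.0079 in VSEL, 3.21 ± 0.013 in HSC and 3.24 ± 0.24 in ESC (SD). In the marrow, Cxcl12 is made by stromal cells that carry Lepr, Kitl and Foxc1. Of the 8 measured stroma and osteoblast markers, 3 were above background in each VSEL library, 0 to 2 in HSC and 3 to 4 in ESC, and their summed level was 47.7 and 49.5 for the VSEL libraries, 36.8 to 39.4 for HSC and 51.8 to 53.0 for ESC. Lepr, Kitl, Foxc1 and Col1a1 were below background in every library, while Sparc, Pdgfra and Col1a2 were the 3 above it in VSEL. These 3 were also above background in every ESC library. Their means were 12.52, 8.70 and 7.16 in ESC, against 9.79, 6.60 and 6.61 in VSEL. The part of these markers in the Cxcl12 difference was not tested.

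**Figure D2:**
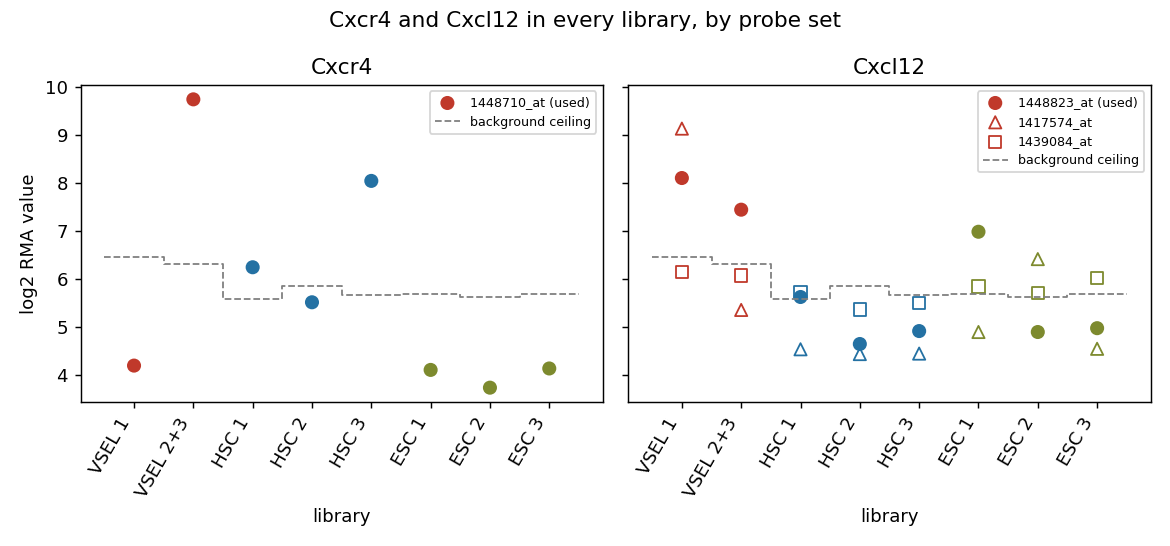
Log2 RMA value (vertical axis) of Cxcr4 and Cxcl12 in each library (horizontal axis: VSEL, HSC, ESC from left to right), with filled symbols for the probe set used, open symbols for other probe sets and a dashed line for the background ceiling of each library. Cxcr4 is at 9.74 in VSEL 2+3 and 4.19 in VSEL 1, while Cxcl12 is above 7 in both by the probe set used. By its other probe sets, Cxcl12 is at 9.13 and 6.14 in VSEL 1 and at 5.35 and 6.07 in VSEL 2+3.

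The promoter windows of the pair run from 250 bases before to 50 bases after the RefSeq start on GRCm38.p6. They are shown because the 2 genes, by the probe sets used, split differently over the libraries. Cxcr4 lies at chr1:128592250-128592549 on the minus strand and Cxcl12 at chr6:117168285-117168584 on the plus strand. Capitals mark matches, on either strand, to the TATA box letters TATAAA, the AP-1 letters TGANTCA, the NF-kB letters (GGGA, any base, TTTCC), the interferon response letters (TTTC, any pair of bases, TTTC) and the PU.1 and ETS letters GAGGAAGT.
Cxcr4: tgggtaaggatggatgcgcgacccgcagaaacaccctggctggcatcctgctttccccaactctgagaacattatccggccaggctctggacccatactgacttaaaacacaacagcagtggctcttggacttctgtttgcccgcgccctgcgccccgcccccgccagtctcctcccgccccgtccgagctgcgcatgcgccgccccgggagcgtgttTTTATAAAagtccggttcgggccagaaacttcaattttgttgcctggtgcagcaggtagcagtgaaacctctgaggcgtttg
Cxcl12: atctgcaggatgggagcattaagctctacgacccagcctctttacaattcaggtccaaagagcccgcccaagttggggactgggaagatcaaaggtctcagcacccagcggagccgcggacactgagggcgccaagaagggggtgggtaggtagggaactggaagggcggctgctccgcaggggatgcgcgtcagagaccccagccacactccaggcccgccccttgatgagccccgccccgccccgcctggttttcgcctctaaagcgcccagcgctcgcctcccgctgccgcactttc
The Cxcr4 window held the TATA letters on both strands in overlapping places, starting 30 and 32 bases before the start site, and the Cxcl12 window held none of the 5 motifs. Of the 50 members, 37 had such a window in the RefSeq table, 41 windows in all. The TATA letters were in 29.3% of these windows and in 13.6% of all 32851 windows, AP-1 in 19.5% against 7.81%, NF-kB in 9.76% against 0.411%, the interferon letters in 4.88% against 3.44%, and the PU.1 letters in 2.44% against 3.2%. A match describes letters only.

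VSEL against HSC compares the gates without and with CD45 from marrow of the same kind of mice. In VSEL, 12 of the 50 members (24%) were lower and 7 (14%) were higher, while 9.18% of all genes were called lower and 8.01% higher. All 12 lower members fell by more than 2-fold and were above background in every HSC library. Except for Ccl4 they were below background in VSEL, so the sizes of these differences depend on the floor of each probe set and give no order among the genes. They comprised 6 receptors and 6 ligands, and most are known from T cells, NK cells and activated leukocytes. Of the 7 higher members, 1 differed by 2-fold or more. At an unadjusted p under 0.05, 14 of the 50 members were higher and 13 lower in VSEL, against 21.3% and 14.2% of all genes. The median difference of the 50 members was 0.18, against 0.22 over all genes. The values of VSEL lay wholly above those of HSC for 15 of the 50 members, against 37.8% of all genes. They lay wholly below for another 15 of the 50, against 17.3% of all genes.

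Among the receptors, Cxcr6, which binds Cxcl16 and marks tissue-homing T and NKT cells, lay at 3.82 and 3.91 in VSEL against 12.16, 12.06 and 11.70 in HSC, and at 3.62, 3.86 and 3.72 in ESC. The VSEL minus HSC difference was -8.11 (SE 0.18; limma, adjusted p = 7.41e-06), and its second probe set gave -7.19. Ccr7, which guides naive T cells and dendritic cells to lymph nodes, lay at 5.10 and 4.69 in VSEL against 12.37, 12.79 and 12.63 in HSC (-7.70, SE 0.20, adjusted p = 8.48e-06). Its ESC values were 4.25, 4.44 and 4.23, so only the HSC libraries were above background. Cxcr3, the receptor of activated T cells for Cxcl9, Cxcl10 and Cxcl11, lay at 5.91 and 5.89 in VSEL against 12.60, 12.54 and 12.19 in HSC (-6.54, SE 0.17, adjusted p = 8.37e-06).

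The other 3 receptors differed by -3.61 to -3.14 between VSEL and HSC. Cxcr5, which leads B cells and follicular helper T cells to follicles, averaged 4.42 ± 0.090 in VSEL and 8.03 ± 1.01 in HSC, with HSC libraries at 8.88, 6.91 and 8.30 (adjusted p = 0.00823). Ccr1, a receptor of monocytes and neutrophils for Ccl3 and Ccl5, averaged 3.97 ± 0.30 in VSEL and 7.38 ± 0.22 in HSC (adjusted p = 0.000299). Ccr9, the receptor that brings T cells to the gut in response to Ccl25, averaged 4.73 ± 0.019 in VSEL and 7.87 ± 0.35 in HSC (adjusted p = 0.000455). Probe sets disagreed for 2 of them. The second of Ccr1 was not called (-0.86, adjusted p = 0.347). Of the other 4 of Ccr9, 1 gave -3.91 (adjusted p = 0.00517) and 3 gave -0.16, -0.13 and 0.27 with no call, so the direction of Ccr9 reversed when probe sets that can match several transcripts were left out.

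Among the ligands, Ccl5 (RANTES), which T and NK cells secrete and which binds Ccr1 and Ccr3, was above background in the HSC libraries only. It lay at 5.93 and 5.89 in VSEL against 14.07, 14.36 and 14.48 in HSC, a difference of -8.39 (SE 0.17; limma, adjusted p = 5.31e-06). Xcl1 (lymphotactin), made by T and NK cells, lay at 5.58 and 5.65 in VSEL against 11.59, 12.34 and 12.26 in HSC (-6.45, SE 0.25, adjusted p = 5.04e-05). Ccl4 lay at 6.79 and 6.91 in VSEL against 11.70, 13.07 and 12.36 in HSC (-5.52, SE 0.38, adjusted p = 0.00041). Ccl4 and its neighbour Ccl3 are released by activated leukocytes. Ccl4 was the one of these 6 ligands above background in VSEL and ESC too. Ccl3 averaged 4.74 ± 0.37 in VSEL and 10.06 ± 0.81 in HSC (adjusted p = 0.00157).

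Cxcl10, induced by interferon, and Cxcl2, which draws neutrophils through Cxcr2, completed the group. Cxcl10 lay at 4.22 and 4.15 in VSEL against 8.35, 8.94 and 8.80 in HSC (-4.52, SE 0.22, adjusted p = 0.000104). Cxcl2 lay at 3.97 and 3.56 in VSEL against 6.56, 7.84 and 8.74 in HSC (-3.95, SE 0.58, adjusted p = 0.00833), the widest spread over HSC libraries of the 12. Their windows are shown because they were the ones of the HSC-high members that held the AP-1 and interferon letters (Cxcl10) and the NF-kB letters (Cxcl2). Cxcl10 lies at chr5:92348840-92349139 on the minus strand and Cxcl2 at chr5:90903649-90903948 on the plus strand of GRCm38.p6, with capitals as above.
Cxcl10: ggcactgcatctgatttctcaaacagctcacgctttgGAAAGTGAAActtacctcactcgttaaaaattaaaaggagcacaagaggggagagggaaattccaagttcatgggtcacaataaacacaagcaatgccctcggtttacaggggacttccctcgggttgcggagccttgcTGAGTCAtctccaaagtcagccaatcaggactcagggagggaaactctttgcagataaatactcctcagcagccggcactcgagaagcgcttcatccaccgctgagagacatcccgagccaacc
Cxcl2: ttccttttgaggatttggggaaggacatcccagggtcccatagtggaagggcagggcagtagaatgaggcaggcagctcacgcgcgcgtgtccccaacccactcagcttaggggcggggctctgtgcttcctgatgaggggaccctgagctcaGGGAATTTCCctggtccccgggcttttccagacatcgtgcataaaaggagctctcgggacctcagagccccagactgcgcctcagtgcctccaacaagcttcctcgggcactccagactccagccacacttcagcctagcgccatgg
Of the 12 HSC-high members, 8 had a window (Ccl4, Ccl5, Ccr7 and Cxcr5 had none), and among these 8 the TATA letters were in 0, the PU.1 letters in 1, that of Cxcr3, and each of the other 3 motifs in 1.

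**Figure D3:**
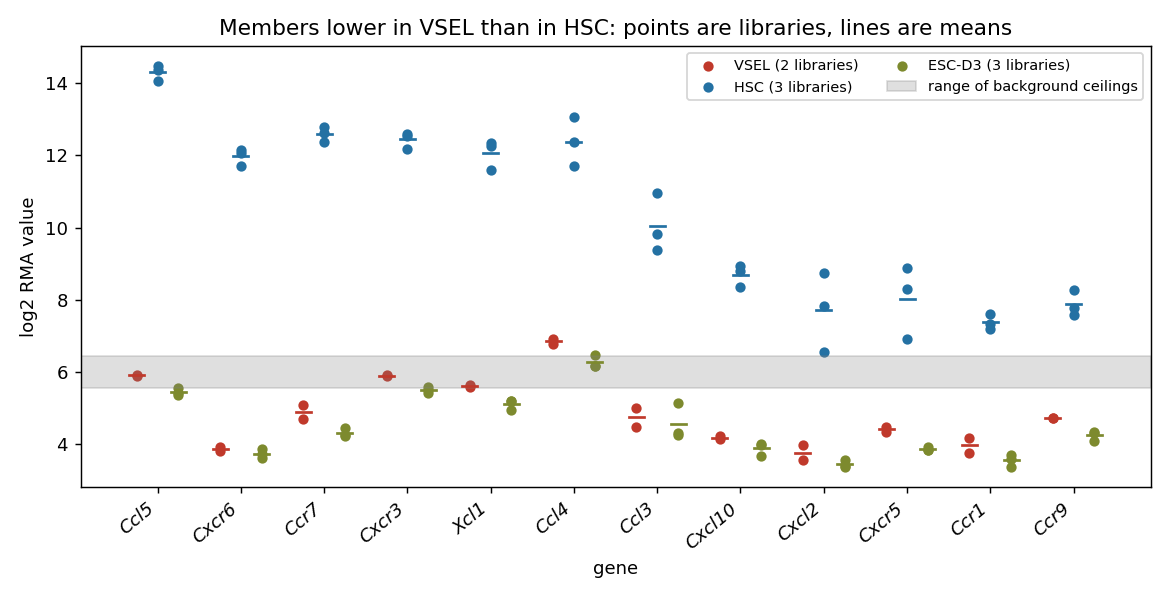
Log2 RMA value (vertical axis) of the 12 members lower in VSEL than in HSC (horizontal axis), with 1 point per library, a line at each group mean and a grey band over the range of the background ceilings. For all 12, every HSC point is above every VSEL and ESC point.

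Markers of T and NK cells moved with these genes. Of 9 measured markers, 1 was above background in VSEL 1 and 2 in VSEL 2+3, against 9 in each HSC library and 1 in each ESC library. Their summed level was 46.1 and 53.0 for VSEL, 98.4 to 103.6 for HSC and 42.3 to 43.6 for ESC. Of the 9 markers, 8 were called lower in VSEL than in HSC, against 9.18% of all genes. Cd3g and Klrd1, which define T and NK cells, were below background in both VSEL libraries, where Cd3e was above it in each and Nkg7 only in VSEL 2+3 (11.23, against 4.95 in VSEL 1). Of the 7 B lineage markers, 5 were above background in each VSEL library and 4 to 5 in HSC, with sums of 69.3 and 63.4 in VSEL and 47.7 to 53.1 in HSC. The 5 dendritic cell markers were all above background in HSC and 3 to 4 of them in VSEL, with sums of 35.5 and 40.8 in VSEL and 40.7 to 44.4 in HSC. Of the 5 dendritic cell markers, 2 were called lower in VSEL than in HSC and 0 higher. Of the 7 B lineage markers, 0 were called lower and 3 higher, against 8.01% of all genes called higher. Of 10 granulocyte and monocyte markers, 1 was called lower and 0 higher. The part of these markers in the chemokine differences was not tested. In such libraries of 20 cells, fewer cells of a type and less RNA per cell cannot be told apart. All 12 genes stayed called, in the same direction, when any 1 of the 8 libraries was left out. Filtering on the median mean left 7 of the 12 tested, all called.

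Partners of the HSC-high genes were read from a list of 37 known ligand and receptor pairs, of which 32 had both sides measured. Both sides were called lower in VSEL than in HSC for Cxcl10 and Cxcr3, Ccl3 and Ccr1, and Ccl5 and Ccr1. Both were called higher in VSEL for Ccl20 and Ccr6. However, Ccr6 was below background in every library and Ccl20 in both VSEL libraries, and both calls ended after cyclic loess. The 2 sides were called in opposite directions for Cxcl11 (0.70) and Cxcr3 (-6.54) in VSEL against HSC, and for Cxcl16 (-0.96) and Cxcr6 (8.24) in HSC against ESC. Cxcl16, the ligand of Cxcr6 and itself a transmembrane protein, averaged 7.60 ± 0.0065 in VSEL, 6.90 ± 0.25 in HSC and 7.85 ± 0.38 in ESC and was above background everywhere. Cxcl13, the ligand of Cxcr5, averaged 6.78 ± 0.19 in VSEL, 6.14 ± 0.25 in HSC and 6.09 ± 0.29 in ESC, with no call. Xcr1, which receives Xcl1 on cross-presenting dendritic cells, Cxcr2, which receives Cxcl2, and Cxcl9 and Cxcl11 were below background in every library. Ccl19 and Ccl21, the ligands of Ccr7, shared their probe sets with other genes.

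A second set of members split the 2 VSEL libraries. In VSEL 2+3, 5 members were more than 4 log2 units above VSEL 1, against 2.75% of all genes, and 0 were as far below it, against 2.53%. This is a description of 2 libraries with no test. Ccl6, a ligand of Ccr1 in myeloid cells, lay at 4.81 in VSEL 1 and 13.04 in VSEL 2+3, with HSC at 9.74, 10.48 and 10.80 and ESC at 5.23, 4.46 and 4.61. Ccl9, another Ccr1 ligand of myeloid cells, lay at 4.94 in VSEL 1 and 11.62 in VSEL 2+3, with HSC at 8.01, 8.47 and 7.11 and ESC at 4.48, 4.75 and 4.11. For both, VSEL 2+3 was above every HSC library and VSEL 1 among the ESC values or near them. Ccl8, a monocyte attractant, lay at 5.59 in VSEL 1 and 11.78 in VSEL 2+3, and was above background in HSC 3 alone among the HSC libraries, at 7.65. Ccl25, the ligand of Ccr9, lay at 4.57 in VSEL 1 and 10.69 in VSEL 2+3, with HSC at 4.38, 7.08 and 4.78 and ESC at 6.74, 5.50 and 4.71. Cxcr4 was the fifth.

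The second probe set of Ccl9 also split the VSEL libraries, at 4.40 in VSEL 1 and 10.50 in VSEL 2+3. That of Ccl6 did not: it lay at 4.45 in both VSEL libraries and at 8.65, 8.83 and 8.11 in HSC, so that it was lower in VSEL (-4.08, adjusted p = 0.000289). That of Ccl25 lay at 5.06 in VSEL 1 and 5.56 in VSEL 2+3, below background. None of the 5 genes was called in any contrast, with SEs of 1.41 to 2.14 on the log2 scale. With 1 VSEL library left, the calls followed the library kept, as the choice of these genes by their gap implies, and the other groups alone gave the spread. Against HSC, Ccl6, Ccl8, Ccl9 and Ccl25 were called higher in VSEL without VSEL 1, and Ccl6 and Ccl9 were called lower without VSEL 2+3. In the RefSeq order, Ccl5, Ccl9, Ccl6, Ccl3 and Ccl4 are neighbours on chromosome 11, of which Ccl5, Ccl3 and Ccl4 were lower in VSEL than in HSC and Ccl9 and Ccl6 split the VSEL libraries. The window of Ccl9 is shown for this set because it held the most motif matches of those printed. It lies at chr11:83578587-83578886 on the minus strand of GRCm38.p6, and its capitals mark the TATA letters at 3 places, 2 of them overlapping, and the AP-1 letters 53 bases before the start site.
Ccl9: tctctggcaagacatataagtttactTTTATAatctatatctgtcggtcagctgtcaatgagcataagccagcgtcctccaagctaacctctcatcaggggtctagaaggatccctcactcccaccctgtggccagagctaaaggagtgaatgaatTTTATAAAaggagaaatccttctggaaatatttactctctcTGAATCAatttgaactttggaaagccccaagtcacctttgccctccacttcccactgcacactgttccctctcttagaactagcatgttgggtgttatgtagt
Markers of granulocytes and monocytes were present in both VSEL libraries. Of the 10 markers, 9 were above background in VSEL 1 and 10 in VSEL 2+3, with sums of 122.1 and 140.2, against 133.8 to 134.8 in HSC and 51.0 to 54.3 in ESC. Csf1r, the receptor that marks monocytes, lay at 6.26 in VSEL 1 and 9.25 in VSEL 2+3, against 10.39 to 11.50 in HSC. Each of the other markers of this list was above every HSC library in VSEL 2+3 and below every HSC library in VSEL 1. Mpo, for example, lay at 11.55 in VSEL 1 and 14.17 in VSEL 2+3, against 12.40 to 12.96 in HSC. Of the 5 dendritic cell markers, Siglech lay at 6.35 in VSEL 1 and 10.84 in VSEL 2+3, while Flt3 (7.03 and 6.91), Irf8 (10.00 and 10.08), Bst2 (6.57 and 6.98) and Itgax (5.54 and 5.94) differed little between them. The part of these markers in the split was not tested.

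Besides Cxcl12, 6 members were higher in VSEL than in HSC, all by less than 2-fold. Ccl28, a ligand of mucosal surfaces for Ccr10 and Ccr3, lay at 6.61 and 6.40 in VSEL against 5.45, 5.59 and 5.49 in HSC, a difference of 0.99 (SE 0.14; limma, adjusted p = 0.00699). Its other probe sets gave 0.60 (adjusted p = 0.0377) and 0.45 (adjusted p = 0.081). Ccl24, an eosinophil attractant, lay at 7.48 and 7.49 in VSEL against 6.62, 6.76 and 6.85 in HSC (0.74, SE 0.13, adjusted p = 0.0152). These 2 and Cxcl12 were the higher members above background in both VSEL libraries. The others were Ccl20 (0.73, adjusted p = 0.0212), its receptor Ccr6 (0.57, adjusted p = 0.03), Cxcl11 (0.70, adjusted p = 0.0294), which the RefSeq table lists as a transcribed pseudogene, and Cxcl17 (0.67, adjusted p = 0.0287). Ccr6 and Cxcl11 were below background in every library, Ccl20 in both VSEL libraries and Cxcl17 in VSEL 1. The median VSEL minus HSC difference over all genes was itself 0.22, and the lower quartile was higher in VSEL. Whether dim genes differ by cell type or by the floor of these arrays cannot be told apart. After cyclic loess the calls of Ccl20, Ccr6, Cxcl11, Cxcl17 and Cxcl12 ended, those of Ccl28 and Ccl24 did not, and Cxcl1 and Cxcl16 were called instead (Cxcl16 1.08, adjusted p = 0.0428). Leaving out any 1 of the 8 libraries ended at least 3 of the 7 calls.

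VSEL against ESC asks how the marrow cells differ from a pluripotent line. In VSEL, 2 of the 50 members (4%) were higher and 0 were lower, against 6.38% and 10.5% of all genes. At an unadjusted p under 0.05, limma gave 11 of the 50 higher and 0 lower, against 17.5% and 17.3% of all genes. Ccl28 was 0.77 higher (SE 0.14, adjusted p = 0.0167), at 6.61 and 6.40 in VSEL against 5.74, 5.64 and 5.81 in ESC. Its other probe sets gave 0.28 (adjusted p = 0.217) and 0.19 (adjusted p = 0.377), and the mean of all its probe sets gave 0.42 (adjusted p = 0.075), which ended the call. Ccl24 was 0.63 higher (SE 0.13, adjusted p = 0.0248), at 7.48 and 7.49 in VSEL against 6.82, 6.85 and 6.89 in ESC. Without VSEL 1 or without ESC 2, neither was called, and Ccl24 was not called without VSEL 2+3, ESC 1 or ESC 3 either (adjusted p = 0.0591 to 0.0722). The VSEL values were wholly above those of ESC for 33 members, against 33% of all genes, and wholly below for 0, against 22.6%. Most of these differences were small, with a median of 0.41 over the members and 0.11 over all genes. Many of the members wholly above ESC, such as Ccr6, Cxcl9 and Xcl1, were below background in both VSEL libraries. The background ceiling was also higher in VSEL, at 6.445 and 6.298, against 5.621 to 5.685 in ESC libraries. The part of this floor in the count was not tested. For the 12 HSC-high members VSEL minus ESC ran from 0.13 to 0.59 with adjusted p from 0.0928 to 0.838. Ccl5 gave 0.47 (95% interval 0.06 to 0.87), Cxcr6 0.13 (-0.31 to 0.57) and Ccl3 0.17 (-1.07 to 1.42), where an interval including 0 does not show equal levels.

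**Figure D4:**
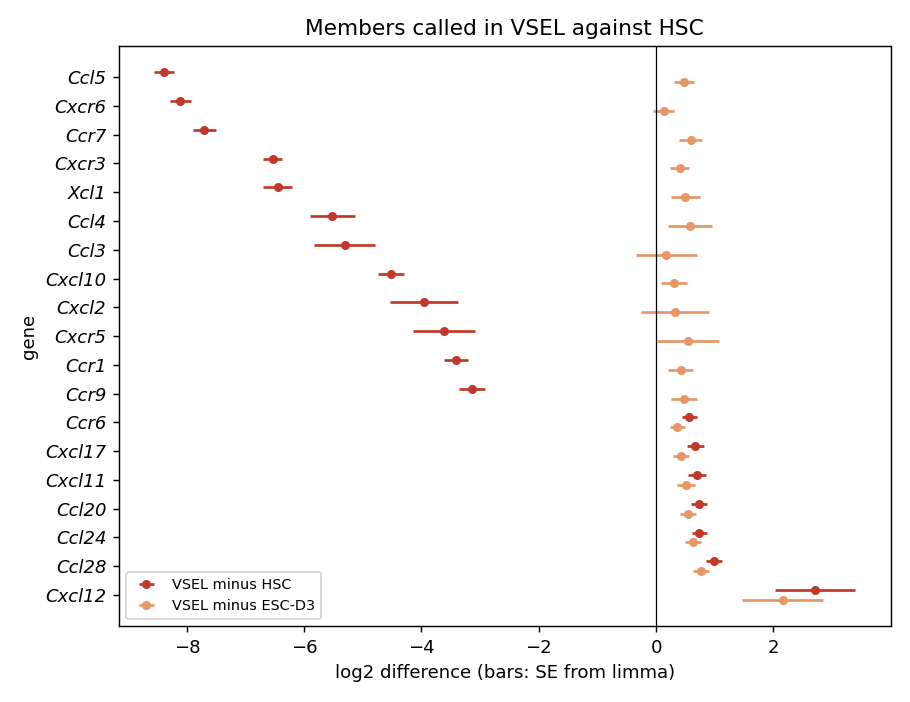
Log2 difference (horizontal axis, with SE bars from limma) of the 19 members called in VSEL against HSC (vertical axis), given as VSEL minus HSC and as VSEL minus ESC. The 12 lower members run from -8.39 to -3.14 against HSC and from 0.13 to 0.59 against ESC.

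HSC against ESC had 12 of the 50 members (24%) higher and 1 (2%) lower in HSC, against 6.99% and 9.93% of all genes. Unadjusted, these were 15 and 1 of the 50, against 11.4% and 16% of all genes. The HSC libraries also enter the comparison of VSEL with HSC, so the 2 comparisons are not separate evidence. Ccl5 lay at 14.07, 14.36 and 14.48 in HSC against 5.56, 5.42 and 5.36 in ESC (8.86, SE 0.15; limma, adjusted p = 1.48e-06). Ccr7 was 8.29 higher in HSC (SE 0.18, adjusted p = 2.1e-06), Cxcr6 8.24 (SE 0.16), Xcl1 6.95 (SE 0.23) and Cxcr3 6.94 (SE 0.15). Ccl4, Ccl3, Cxcl10, Cxcl2, Cxcr5, Ccr1 and Ccr9 were higher by 6.10 down to 3.62. Above background in every HSC library and in no VSEL or ESC library were 11 members, against 1.58% of all genes. The lower member was Cxcl16, at 6.61, 6.96 and 7.11 in HSC against 7.54, 8.27 and 7.75 in ESC (-0.96, SE 0.23, adjusted p = 0.0368), and this call ended without any single HSC library, without ESC 2 or ESC 3, and after cyclic loess. Members wholly above ESC numbered 17 of the 50, a larger share than the 16.5% of all genes (3006 of 18193). Those wholly below numbered 8 of the 50, against 21.5% of all genes.

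In all, 20 members were called in at least 1 contrast and 30 in none. Of those 30, 16 were above background in no library and 5 were the members that split VSEL. Of the other 9, Ccr2, Cx3cl1, Cxcl1 and Cxcl13 were above background in every library. Ccl1, Ccl2, Ccl17, Ccr10 and Cxcl14 were above it in only some libraries. Ccr2, the receptor that brings monocytes out of the marrow, is a case where the choice of probe set decided the call. The probe set used lay at 6.96 and 7.07 in VSEL, 7.03, 8.64 and 7.86 in HSC and 6.74, 6.28 and 6.31 in ESC, and VSEL minus HSC was -0.83 (adjusted p = 0.237). Of its other 3 probe sets, 1 gave -4.34 (adjusted p = 0.000506) and 1 gave -3.92 (adjusted p = 9.18e-05), with VSEL at 3.59 to 3.93 and HSC at 7.45 to 8.39. The remaining one gave -0.71 with no call. Ccl2, the ligand of Ccr2, lay at 5.31 and 5.61 in VSEL and 6.76, 6.04 and 6.28 in HSC (-0.90, adjusted p = 0.132).

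Of 10 chemokine genes and receptors with other kinds of symbol, 2 were higher and 1 lower in VSEL than in HSC. The shares of all genes called were 8.01% higher and 9.18% lower. Ackr1, the Duffy antigen receptor that binds many chemokines without signalling and is carried by erythroid cells, lay at 10.47 and 10.33 in VSEL, at 5.62, 5.84 and 5.60 in HSC and at 6.00, 5.99 and 6.16 in ESC. It was 4.72 higher than in HSC (SE 0.15; limma, adjusted p = 1.82e-05) and 4.35 higher than in ESC (SE 0.15, adjusted p = 0.000126). The 4 measured erythroid markers had a summed level of 52.8 and 46.6 in VSEL, 32.7 to 36.9 for HSC and 22.8 to 23.7 for ESC, with all 4 above background in every VSEL and HSC library, and their part in Ackr1 was not tested. Ackr4, a scavenger of Ccl19, Ccl21 and Ccl25, was 0.74 higher in VSEL than in HSC (adjusted p = 0.0194). Ccrl2, a receptor without known chemokine signalling, was lower in VSEL, at 7.07 and 6.06 against 8.10, 8.22 and 8.66 in HSC (-1.76, adjusted p = 0.0205). Mif, a cytokine that also binds Cxcr4, differed between VSEL and ESC by -1.48 (adjusted p = 0.00214). Between HSC and ESC, Cd74, a receptor of Mif, was 4.49 higher in HSC and Ccrl2 2.87 higher, while Mif differed by -1.34. Pf4 and Ppbp, chemokines of platelets, were below background in VSEL and ESC and above it in 2 and 1 of the HSC libraries.

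Genes that carry the signal inside the cell were also read. Of 38 measured genes, 13 were higher and 2 lower in VSEL than in ESC, against 6.38% and 10.5% of all genes. In HSC against ESC, 19 were higher and 1 lower, against 6.99% and 9.93% of all genes. In VSEL against HSC, 2 were higher and 8 lower, against 8.01% and 9.18% of all genes. Rac2, the Rac GTPase of blood cells that drives migration, lay at 12.99 and 13.78 in VSEL, 13.93, 13.93 and 13.94 in HSC and 5.60, 5.52 and 6.14 in ESC, a VSEL minus ESC difference of 7.63 (SE 0.29; limma, adjusted p = 0.000183). Jak2 (6.34), Pik3r5, a subunit of the PI3 kinase that G proteins activate (5.12), Rgs2 (4.43), Ptk2b (4.26) and Arrb1 (3.45) were also higher in VSEL than in ESC. In HSC against ESC the largest were Rac2 (8.18), Dock2 (6.87), Rgs2 (6.62), Rgs1 (6.14), Was (6.11) and Ptk2b (5.95), all higher in HSC.

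Rgs1, which ends G protein signalling in lymphocytes, lay at 5.09 and 4.80 in VSEL against 9.69, 11.71 and 11.52 in HSC (-6.02, SE 0.59; limma, adjusted p = 0.00162). Was, the actin regulator of blood cells, lay at 4.73 and 4.61 in VSEL against 10.42, 10.82 and 9.38 in HSC (-5.53, SE 0.41, adjusted p = 0.000531). Rgs2 (-2.19), Gng2 (-2.06), Pik3cd (-1.73) and Ptk2b (-1.70) were lower in VSEL as well, while Src (1.70) and Plcb2 (1.05) were higher. Dpp4, the protease that trims Cxcl12, averaged 7.36 ± 0.12 in VSEL, 8.59 ± 0.11 in HSC and 6.56 ± 0.12 in ESC, lower in VSEL than in HSC (-1.23, adjusted p = 0.00373) and higher than in ESC (0.80, adjusted p = 0.0176).

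Among 12 other receptors for attractants, 3 were lower and 0 higher in VSEL than in HSC, against 9.18% and 8.01% of all genes. In HSC against ESC, 5 were higher and 0 lower, against 6.99% and 9.93% of all genes. Gpr183, which positions lymphocytes by sensing oxysterols, lay at 4.92 and 5.01 in VSEL against 10.80, 12.15 and 11.30 in HSC (-6.45, SE 0.38; limma, adjusted p = 0.000244). S1pr1, which lets lymphocytes leave lymphoid organs, lay at 9.60 and 8.11 in VSEL, 11.01, 11.16 and 10.55 in HSC and 6.30, 6.58 and 6.26 in ESC. It was lower in VSEL than in HSC (-2.05, adjusted p = 0.027) and higher than in ESC (2.48, adjusted p = 0.015). Ltb4r1, a leukotriene receptor, was lower in VSEL than in HSC (-1.87, adjusted p = 0.00131). Fpr2, a receptor of neutrophils for formyl peptides, lay at 5.08 in VSEL 1 and 10.58 in VSEL 2+3, with HSC at 10.78, 9.62 and 10.81, and was 6.40 higher in HSC than in ESC. Gpr183 was 6.83 and S1pr1 4.53 higher in HSC than in ESC, followed by S1pr4 (3.54) and Ltb4r1 (2.44).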

How the data were processed

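Expression was measured on 9 one-colour Affymetrix mouse arrays, 3 each for VSEL, HSC and ESC. The authors deposited log2 values of each probe set, made by RMA with Partek 6.5 as the submitters' processing notes name them; its settings, not given in the sources used here, stay unknown, and no further normalization was applied. Of 45101 probe sets, 34945 that were not controls carried 1 gene; symbols of 34741 were updated through gene identifiers in the RefSeq table (GRCm38.p6), and 204 stayed as annotated. The 4 probe sets that match a member among several genes were left out. A two-sided limma test (version 3.58.1, R 4.3.3; lmFit, eBayes) was fitted once over 8 libraries and all 18193 genes, with a residual df of 5 and a prior df of 1.37, p-values adjusted by Benjamini-Hochberg within a contrast, and calls at 0.05. One spread per gene is shared by the 3 cell types; the fit was tested on simulated data. Errors are SDs over libraries, and intervals are at 95%. Precision is limited by how few arrays there are. The text names Cxcr4, Cxcl12, every called member, their partners and members over 4 log2 units apart between VSEL libraries, and from each pathway list up to 6 called genes per contrast by size, with Ackr3, Pf4, Ppbp, Dpp4 and the other probe sets of members added after their values were seen. Members and lists were chosen with earlier results of these data known. The alternatives kept the 9 arrays separate, with and without a replicate block, normalized again (quantile, cyclic loess), filtered dim genes, averaged or dropped probe sets, fitted 2 cell types alone, weighted arrays and left out each library. Testing every probe set of a member was chosen after seeing the data.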

Additional observations from a re-analysis of the deposited data

How the results depend on the processing

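Between VSEL and HSC, 12 members were lower; the count was 7 among genes above the median mean, which tested 16 members, and 11 to 14 in the other settings, 12 to 14 with a library left out. The 7 higher members became 4 with cyclic loess, 0 in the genes over the median mean, 2 among genes above background on 2 or more arrays, 2 in a fit on these cell types alone and 1 with array weights, and 2 to 7 with a library left out. In VSEL against ESC the 2 higher members became 5 with the 9 arrays separate, 7 after another quantile normalization, 7 after cyclic loess, 0 under either filter on dim genes and 1 with array weights, and 0 to 5 with a library left out; none was lower in any setting. In HSC against ESC the 12 higher members numbered 8 among genes above the median mean and 11 to 15 otherwise, and the 1 lower member became 0 after cyclic loess and 0 to 1 with a library left out. Dropping the probe sets whose type allows several transcripts, or reading Ccr9 from another probe set, turned its difference to 0.27 in VSEL against HSC and -0.27 in HSC against ESC. The filters test fewer genes by construction; otherwise the cause was not tested. Cyclic loess moved the median VSEL minus HSC difference of all genes to 0.06, against 0.22 as deposited. Over all genes, 1458 were higher and 1671 lower in VSEL than in HSC, but 384 and 865 with array weights, 507 and 1079 in a fit on these cell types alone, and 2163 and 1361 after another quantile normalization. In VSEL against ESC these were 1161 and 1914, but 1758 and 1343 after quantile normalization and 1185 and 1081 after cyclic loess. With a replicate block and the 9 arrays separate, the members higher and lower were 7 and 12 in VSEL against HSC, 4 and 0 in VSEL against ESC, and 12 and 1 in HSC against ESC. Same-numbered samples deviated together with r of -0.0888 to 0.1554 (across genes), so the numbers were not taken to pair them.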

Other observations

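The 4 probe sets that carry a member of the rule among several genes entered no comparison. The one shared by Ccl19 lay at 6.42 and 7.13 in VSEL, 6.18, 6.11 and 6.16 in HSC and 6.08, 5.82 and 5.69 in ESC. The one shared by the Ccl21 genes lay at 6.25 and 6.33 in VSEL, 5.84, 5.90 and 5.84 in HSC and 5.83, 5.62 and 5.66 in ESC, near the background ceiling of each library. The pair shared by the Ccl27 genes lay at 5.52 and 5.02, and at 5.66 and 5.76, in VSEL, and in ESC 3 at 6.26 and 6.76.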
